A study of Arabidopsis thaliana with 8 samples.

Results

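Shoots of Arabidopsis thaliana grown with selenate were compared with shoots grown without it, using 4 of the 8 Affymetrix arrays of the series: control 1 and control 2 against selenate 1 and selenate 2. All plants were ecotype Ws (Wassilewskija), 10 days old, and had been kept upright on 0.5 strength Murashige and Skoog medium at 22 °C with 16 h of light and 8 h of dark; the selenate plates held 40 µM selenate. The other 4 arrays, 2 of control roots and 2 of selenate roots from plants grown the same way, entered the model of the spread and the comparison of responses between organs. No transgene or mutation was named for any group, the number of plants behind an array was not given, and whether the 2 arrays of a group stand for separate plates or cultures was not stated, so the tests weigh differences against a spread that may be technical. A probe set was kept where its signal reached 100 on at least 2 of the 4 shoot arrays, which held for 13640 of 22746 probe sets (60%). The last probe set inside this limit had a second-highest shoot signal of 100 and the first outside it 99.9.

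Selenate is the selenium counterpart of sulfate. Plants take it up through sulfate transporters and pass it into the sulfate assimilation pathway, where it can end in selenocysteine and selenomethionine, which replace the sulfur amino acids in proteins. Roots meet the anion first, while most sulfate reduction takes place in the chloroplasts of the shoot. The same leaves make glucosinolates, the sulfur-rich defence compounds of the cabbage family.

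The signals marked these arrays as green tissue. Titles and source names called them shoots, whereas their free-text descriptions spoke of roots. The 9 probe sets of nuclear photosynthesis genes had summed signals of 165504 to 177070 on the shoot arrays and 2317 to 3828 on the root arrays. Among root genes, EXPA7, a root-hair expansin, had signals of 8.3 to 38.7 in shoots and 196 to 533 in roots, and EXPA18 had 3.3 to 59.6 in shoots and 235 to 735 in roots. PYK10, an abundant root beta-glucosidase, reached 5645 to 9465 in shoots, with overlapping control and selenate arrays.

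The 4 shoot arrays differed among themselves in ways that the treatment did not explain. Across the tested probe sets the controls correlated with each other at r = 0.951 and the selenate arrays at 0.972, while control 1 correlated with selenate 2 at 0.964 and control 2 with selenate 1 at 0.966. Each control array was therefore closer to a selenate array than to the other control. The 3' to 5' signal ratio of the GAPDH control probe sets, a gauge of RNA integrity, split the arrays the same way, at 2.03 on control 1, 10.4 on control 2, 7.34 on selenate 1 and 2.95 on selenate 2, against 0.783 to 0.868 on root arrays. The ubiquitin ratio was 4.38 and 4.88 on the controls and 5.24 and 6.11 on the selenate arrays, so it moved with the treatment, and its part in the results below was not tested. The standard deviation of the log2 difference between replicates was 0.49 in control shoots and 0.37 in selenate shoots, against 0.26 and 0.27 in control and selenate roots.

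A small set of transcripts differed between selenate and control shoots. With limma, and signals taken as log2(signal + 25), 67 probe sets rose (0.491% of those tested) and 30 fell (0.22%) at a Benjamini-Hochberg adjusted p under 0.05, together 97 (0.711%). At an unadjusted p under 0.05 there were 1201. Every called probe set differed by a log2 value of at least 1.04, 14 rose and 5 fell by at least 4-fold, and in all 97 both selenate arrays lay beyond both controls. Such a separation was common without a call: both selenate arrays lay above both controls in 17.1% of all tested probe sets and below them in 19.2%, and by at least 2-fold as well in 1.27% and 0.88%. The median log2 difference of all tested probe sets was -0.01. Of the called probe sets 42 had 1 listed gene, 26 of them higher and 16 lower, 52 had no listed gene and 3 listed several. In whole shoots, fewer cells of a type and less RNA per cell cannot be told apart.

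**Figure D1:**
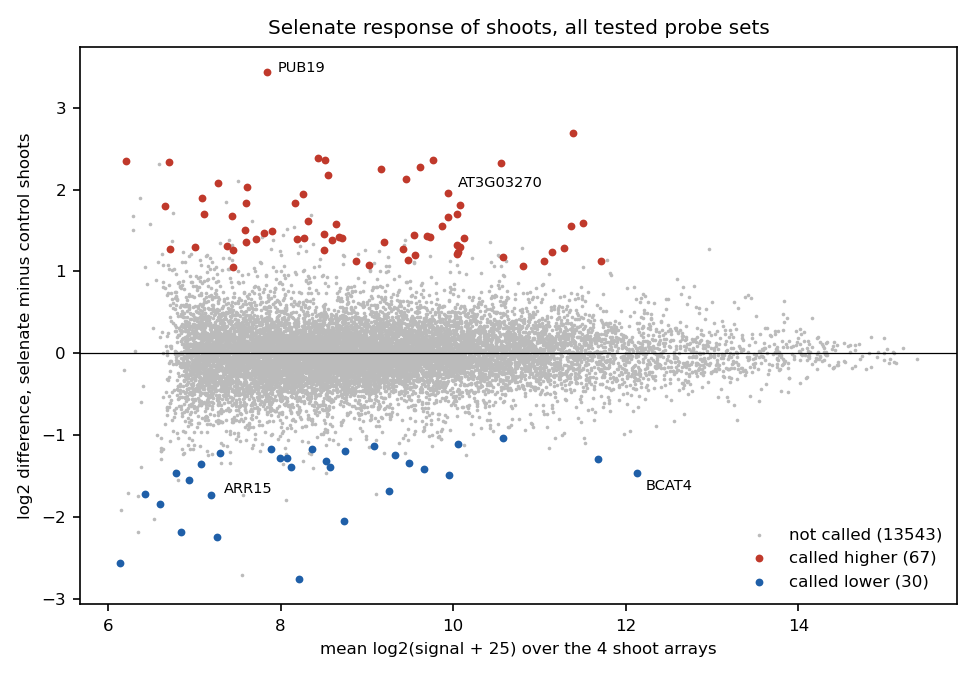
Each point is 1 of 13640 probe sets, placed by its mean log2(signal + 25) over the 4 shoot arrays and by its log2 difference between selenate and control shoots. The 67 called higher (red) and 30 called lower (blue) stand at or beyond 1.04 in size, with PUB19 farthest above at 3.43.

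These calls depended on both selenate shoot arrays and on the root arrays' share in the estimate of spread. With limma, no probe set was called without selenate 1 (422 at an unadjusted p under 0.05), without selenate 2 (563), or with only the 4 shoot arrays in the fit (1178), while without control 1 there were 14 higher and 6 lower (19 of the 97 still called) and without control 2 there were 76 higher and 56 lower (73 of the 97). Leaving out 1 root array gave 32 to 47 higher and 11 to 16 lower. All 97 kept their direction in each of these fits. This was fixed in advance, because in all 97 both selenate arrays lay beyond both controls. The statements on single genes below share the dependence on both selenate arrays and on the root arrays.

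PUB19, a U-box ubiquitin ligase linked to abscisate and drought signalling, showed the largest rise. Its signal was 87.7 on control 1, 18.2 on control 2, 839 on selenate 1 and 633 on selenate 2. Both controls lay under the level of 100 and both selenate arrays far above it, a 10.8-fold difference on the log2(signal + 25) scale (log2 difference 3.43, SE 0.39, limma adjusted p = 0.0107). The 2 controls differed, and the value was 4.13 without control 1, 2.74 without control 2 and 2.54 without control 2 and selenate 1 together. PUB19 was the only called member of the 8 tested U-box ligases, a family of ubiquitin ligases, whose median log2 difference was -0.14 and of which 1 had both selenate arrays above both controls. Its relative PUB23 had signals of 123 and 116 in control shoots and 99.4 and 52.3 in selenate shoots, which did not pass the test (log2 difference -0.55, limma adjusted p = 0.572).

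Among other tested genes of water deficit and cold, SAG29 was called, while COR15A, LEA4-5 and COR47 were not. The list of abscisate, cold and drought genes had 24 entries, of which 7 were on the array's gene table and 5 were tested. PUB19 and SAG29 rose, and all 5 had both selenate arrays above both controls, beside 16.7% of all genes, with a median log2 difference of 1.58 beside -0.01 for all genes. In 4 of the 5, PUB19, SAG29, COR15A and LEA4-5, both controls were under 100, so that these genes passed the filter only through the selenate arrays. PUB19, SAG29 and LEA4-5 were also placed on the list with their values known, so nothing is read from its count or its median. SAG29, also named SWEET15, a sugar exporter of senescing and stressed leaves, had 96.0 and 82.1 in controls and 299.7 and 298 in selenate shoots, with a gap between the groups many times the spread within them (log2 difference 1.51, SE 0.28, limma adjusted p = 0.0445). COR15A, a chloroplast protein of cold-acclimated leaves, had 59.7 and 64.4 in controls and 234 and 354 in selenate shoots. Its groups did not overlap, but the test was not passed (1.85, adjusted p = 0.139). LEA4-5, a late embryogenesis abundant protein, had 16.5 and 39.5 against 126 and 134 (1.58, adjusted p = 0.136). COR47, a dehydrin, had 2177 on both controls against 3658 and 3350 (0.68, adjusted p = 0.166). The other 3 tested late embryogenesis abundant or dehydrin genes ranged from -0.35 to -0.07.

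Sugar efflux carriers of the SWEET family gave 8 tested members and 1 call, SAG29, and 3 of the 8 (37.5%) had both selenate arrays above both controls, against 16.7% of all genes. Of these 3, SAG29 and SWEET4 had both controls under 100 and passed the filter only through the selenate arrays, so nothing is read from that share. SWEET13, a sucrose exporter, had 148 and 167 in controls and 425 and 296 in selenate shoots (log2 difference 1.06, limma adjusted p = 0.155). SWEET4 had 50.7 and 45.1 against 109 and 140 (1.03, adjusted p = 0.465). SWEET17, a vacuolar fructose carrier, went the other way, with 848 and 1005 against 439.9 and 711 (-0.70, adjusted p = 0.667).

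BGLU28, a beta-glucosidase whose transcript is a marker of sulfur deficiency, rose to a moderate level. Its signal was 69.1 and 74.2 in controls and 427 and 317 in selenate shoots. Both controls were under 100, so that it passed the filter only through the selenate arrays, and the difference was 4.07-fold on the log2(signal + 25) scale (log2 difference 2.03, SE 0.32, limma adjusted p = 0.0257). The other measured genes of sulfur nutrition were not called. AT1G04770, the other tested member of the sulfur deficiency list, had 1091 and 1317 in controls and 643 and 536 in selenate shoots, a lower level that missed the threshold (log2 difference -0.999, adjusted p = 0.0795). APS3, an ATP sulfurylase that activates sulfate, had 1167 and 1115 against 789 and 775 (-0.53, adjusted p = 0.426). The log2 differences of APS4, another ATP sulfurylase, and of SIR, sulfite reductase, were -0.14 and 0.16, each with overlapping arrays. No member of the sulfate list (3 tested of 24 entries) was called.

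Genes that handle methionine and selenium moved little in shoots. None of the 5 tested members was called, and their log2 differences lay between -0.03 and 0.37. MGL, methionine gamma-lyase, had 519 and 578 in controls and 682 and 751 in selenate shoots (0.37, limma adjusted p = 0.731). HMT-1, a homocysteine methyltransferase, and MMT, methionine methyltransferase, had log2 differences of 0.34 and 0.33, while CPNIFS, the plastid cysteine desulfurase that can also release selenium from selenocysteine, was at -0.03. Of the glutathione reductases, GR1 had 3185 and 4778 against 7034 and 5207 (0.63, adjusted p = 0.453), and GR was at 0.00.

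Among the named falls, an enzyme of glucosinolate synthesis had the highest signal. BCAT4, the aminotransferase that opens the methionine chain-elongation pathway to aliphatic glucosinolates, had 7923 and 6930 in controls and 2848 and 2505 in selenate shoots. The higher selenate array lay far under the lower control (2.76-fold lower, log2 difference -1.46, SE 0.22, limma adjusted p = 0.0242). The other 2 tested genes of that list were GSTU20, a glutathione transferase assigned to the pathway, at -0.41 and AT2G31790 at 0.01, both with overlapping arrays. MSRB6, a methionine sulfoxide reductase, which repairs oxidised methionine, fell from 1692 and 1397 to 719 and 682 (-1.11, adjusted p = 0.0435).

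Hormone-response and cell wall genes supplied further falls. ARR15, a type-A response regulator induced by cytokinin, had 266 and 219 in controls and 60.1 and 50.9 in selenate shoots. Both selenate arrays fell under 100, so that it passed the filter only through the controls. The groups were well apart (log2 difference -1.73, SE 0.30, limma adjusted p = 0.0352). RR16, the other tested cytokinin-response gene and also a type-A regulator, had 76.1 and 101 against 148 and 151 (0.63, adjusted p = 0.651). GH3.3, an auxin-conjugating enzyme, had 399 and 338 against 136 and 138, a 2.42-fold difference that was not called (-1.28, adjusted p = 0.157).

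GH9B8, a family 9 glycosyl hydrolase related to cellulases, fell from 444 and 355 in controls to 143 and 153 in selenate shoots (log2 difference -1.28, limma adjusted p = 0.0337). Expansins, which loosen cell walls during growth, had a median log2 difference of -0.64 over 9 tested members, and in 5 of the 9 (55.6%) both selenate arrays lay below both controls, against 18.6% of all genes. In 1 of the 5 both selenate arrays were under 100, so that it passed the filter only through the controls. None of the 9 was called. EXPB3 had the widest difference, with 627 and 365 in controls against 197 and 290.1 (-0.93, adjusted p = 0.295). EXPA8 was the brightest of those named, with 2739 and 2572 against 1460 and 1795 (-0.70, adjusted p = 0.391), and EXPA9 and EXLA1 had positive values of 0.14 and 0.18.

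ATLP-1, a thaumatin-like protein, fell from 1142 and 807 to 355 and 432 (log2 difference -1.24, limma adjusted p = 0.0428). ASPGB1, an asparaginase that frees ammonium from asparagine, fell from 345 and 318 to 112 and 157 (-1.18, adjusted p = 0.0405). In neither gene did the groups overlap, and the controls of ATLP-1 lay wider apart than those of ASPGB1.

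PDF1.2b and PDF1.2, defensins induced by jasmonate and ethylene, had the most negative log2 differences of all list members, but neither was called. PDF1.2b had 659 on control 1, 314 on control 2, 49.4 on selenate 1 and 46.9 on selenate 2 (log2 difference -2.72, SE 0.56, limma adjusted p = 0.0685). It passed the filter only through the controls. PDF1.2 had 725 and 306 in controls and 138 and 101 in selenate shoots (-1.80, SE 0.39, adjusted p = 0.0839). The controls differed from each other by over 2-fold in both genes, and the PDF1.2b probe set can bind transcripts of related genes. The other tested defensins, LCR68 and LCR69, were at -0.24 and 0.17.

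RING1, a plasma membrane ubiquitin ligase tied to cell death, rose from 243 and 222 to 700.2 and 623 (log2 difference 1.41, limma adjusted p = 0.0337). OSM34, an osmotin-like defence protein that is abundant in roots, rose from 56.1 and 31.6 to 135 and 143 (1.28, adjusted p = 0.0405), while its signal was 5238 to 9023 on root arrays. Both shoot controls of OSM34 were under 100, so it passed the filter only through the selenate arrays. With a pseudocount of 100 its log2 difference was 0.74 and it was not called. PYK10 did not move with it, at 5771 and 9465 in controls against 6758 and 5645 in selenate shoots. ALDH7B4, an aldehyde dehydrogenase induced by osmotic stress, rose from 1321 and 1499 to 3192 and 3034 (1.13, adjusted p = 0.0337).

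**Figure D2:**
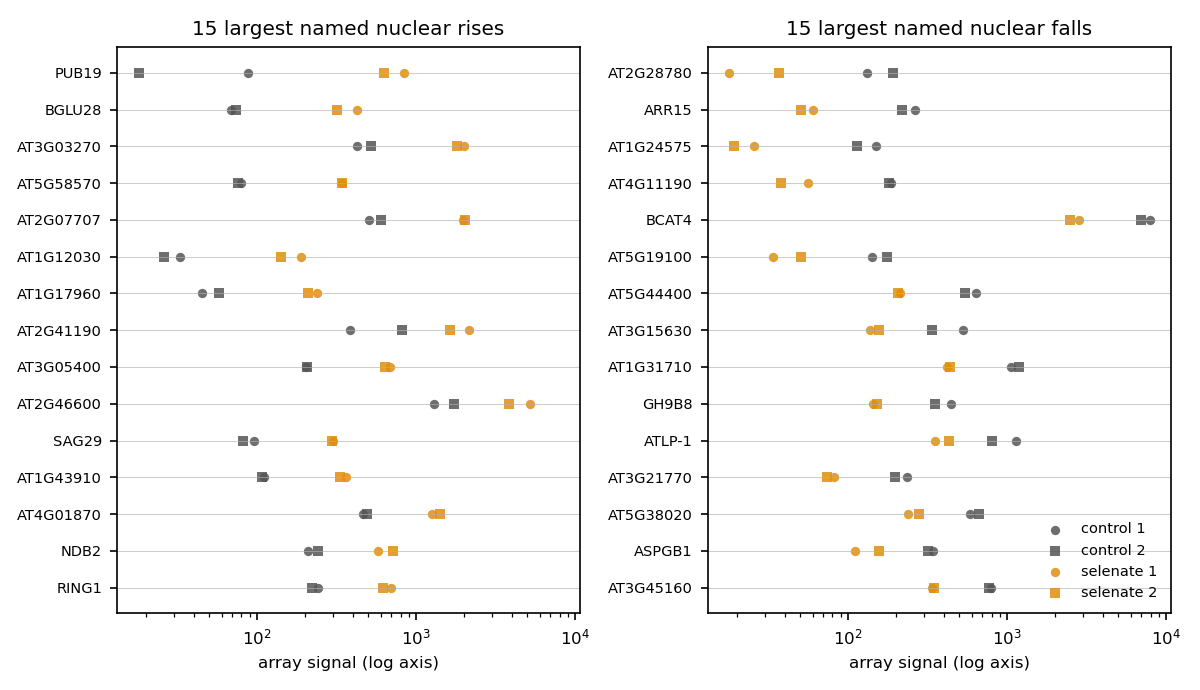
Array signals, on a log axis, of the 15 genes annotated as nuclear with the largest called rises (left) and the 15 with the largest called falls (right). Grey marks are controls 1 and 2 and orange marks selenate 1 and 2. AT2G07707, among the rises, lies among the chromosome 2 loci copied from the mitochondrial genome, and its probe set cannot tell the copies apart. In each row the orange marks lie on one side of the grey ones, from PUB19 (18.2 to 87.7 against 633 to 839) to AT3G45160 (767 to 793 against 336 to 349).

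Many of the called genes carry a locus code and no symbol, and nothing is said here of their function. AT3G03270 had the clearest rise among them, from 425 and 525 in controls to 2015 and 1800 in selenate shoots (3.88-fold, log2 difference 1.96, SE 0.22, limma adjusted p = 0.0107). AT5G58570 rose from 80.0 and 75.8 to 341 and 342 (1.83, adjusted p = 0.0405). AT1G12030 rose from 32.8 and 26.0 to 188 and 142 (1.80, adjusted p = 0.0364). In the last 2 genes both controls were under 100, so they passed the filter only through the arrays in which they were high, as did 171 tested probe sets, 13 of them called higher.

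AT1G17960 rose from 45.4 and 58.2 to 239 and 211 (log2 difference 1.71), AT2G41190 from 384 and 813 to 2146 and 1647 (1.70) and AT3G05400 from 203 and 208 to 689 and 638 (1.58). In AT1G17960 both controls were under 100, so it passed the filter only through the selenate arrays. AT2G46600 rose from 1308 and 1742 to 5232 and 3841 (1.55), the highest signal among the named rises. AT1G43910 rose from 111 and 108 to 363 and 332 (1.46) and AT4G01870 from 467 and 492 to 1262 and 1412 (1.43). The limma adjusted p of these 6 genes lay between 0.0216 and 0.042. AT5G18840, AT1G73480, AT5G52450 and AT4G38540 rose by 1.31, 1.23, 1.12 and 1.08.

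The largest fall of a gene with a locus code was that of AT2G28780, from 131 and 193 in controls to 17.8 and 36.8 in selenate shoots (log2 difference -1.84, SE 0.27, limma adjusted p = 0.0216). AT1G24575 fell from 150 and 115 to 25.8 and 19.3 (-1.72) and AT4G11190 from 187 and 181 to 56.4 and 37.9 (-1.55). These genes lay well under 100 in selenate shoots, so they passed the filter only through the controls. The same held for 181 tested probe sets, of which 10 were called lower. AT5G19100 fell from 142 and 176 to 33.6 and 50.5 (-1.46), and it too passed the filter only through the controls. AT5G44400, AT3G15630 and AT1G31710 fell by 1.39, 1.39 and 1.34 on the log2 scale, from levels of 340.4 to 1196 in controls to 137 to 438. AT3G21770, AT5G38020 and AT3G45160 fell by 1.22, 1.20 and 1.13. AT3G21770 had 82 and 74.3 in selenate shoots, so it passed the filter only through the controls. Values of weak genes depend on the pseudocount, and with 100 in place of 25 the log2 differences were 2.48 for PUB19, 1.03 for AT1G12030, 1.098 for AT1G17960, -1.04 for AT2G28780, -1.14 for ARR15, -0.92 for AT1G24575, -0.95 for AT4G11190 and -0.86 for AT5G19100. Among genes not called in the main fit, that setting gave 0.84 for the mitochondrial gene ccb203, 0.85 for LEA4-5, 0.99 for UGT73C1 and -1.92 for PDF1.2b. With a pseudocount of 100 the calls of AT1G24575, AT4G11190, AT5G19100, AT3G21770, ASPGB1 and OSM34 did not remain.

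Probe sets without a listed gene held several of the largest differences. The probe set 262118_at had 777 and 1349 in controls and 7245 and 6326 in selenate shoots (log2 difference 2.69), and it shared the smallest limma adjusted p of 0.00759 with 246302_at. The probe set 244901_at rose from 132 and 140 to 912 and 702 (2.36). In the other direction 258322_at fell from 576 and 971 to 101 and 78.4 (-2.76), and 260716_at fell from 160 and 134 to 3.2 and 5.0 (-2.56), close to the bottom of the signal range. The probe set 260716_at passed the filter only through the controls.

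Most of the tested genes assigned by symbol to the mitochondrial genome had higher signals on both selenate arrays than on both controls. This genome encodes subunits of respiratory complexes and part of the machinery that attaches haem to cytochrome c. Of 13 tested mitochondrial genes 3 rose and none fell, all 13 had a positive log2 difference, and in 12 (92.3%) both selenate arrays lay above both controls, against 16.7% of all genes. In 1 of the 12, ccb203, both controls were under 100, so that it passed the filter only through the selenate arrays. The median log2 difference of the 13 genes was 1.25.

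The cytochrome oxidase gene cox2, for a subunit of the last respiratory complex, rose from 89.7 and 175 in controls to 428 and 624 in selenate shoots (log2 difference 1.84, SE 0.33, limma adjusted p = 0.0402; 2.50 without control 2 and selenate 1). Its partner cox1 had 460.2 and 535 against 1390 and 1391, a separation of like size that narrowly missed the threshold (1.44, adjusted p = 0.0575). The complex I gene nad9 rose from 149 and 183 to 528 and 432 (1.40, adjusted p = 0.0364). The other 5 tested complex I genes, nad1, nad4, nad4L, nad5 and nad6, had log2 differences of 0.84 to 1.55 and none was called. Without control 1 the log2 differences were 0.51 for nad1, 0.94 for nad4L and 0.69 for nad5. Of 3 tested nad1 probe sets, 1 had overlapping arrays and a log2 difference of 0.10.

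Among cytochrome c maturation genes, ccb452 rose from 186 and 250 to 631 and 573 (log2 difference 1.38, limma adjusted p = 0.0352), and its probe set can bind several transcripts. The gene ccb203 had 31.9 and 8.5 against 118 and 111 (1.68, adjusted p = 0.120), and ccb206 had 97.6 and 101 against 209 and 212 (0.92, adjusted p = 0.215). The fourth, ccb382, overlapped between groups, with 790 and 1225 against 1023 and 995 (0.04).

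Part of the mitochondrial genome is also present as a copy on nuclear chromosome 2, and probe sets cannot tell such copies apart. Of 15 tested probe sets that list both kinds of gene or lie among these loci, 3 rose and 13 had both selenate arrays above both controls, against 17.1% of all tested probe sets, with a median log2 difference of 0.88. In 3 of these 13 both controls were under 100, so that they passed the filter only through the selenate arrays. The probe set shared by AT2G07671 and atp9, an ATP synthase subunit, rose from 670 and 622 to 3359 and 3297 (2.32, limma adjusted p = 0.0107). The one shared by AT2G07675 and rps12, a ribosomal protein, rose from 82.4 and 188 to 803 and 725 (2.38, adjusted p = 0.0235), and AT2G07707 rose from 510 and 599 to 1968 and 2043 (1.81, adjusted p = 0.0216).

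Plastid genes, measured on the same arrays, showed no such shift. None of 69 tested plastid genes was called with limma, 12 (17.4%) had both selenate arrays above both controls and none had them below, and the median log2 difference was 0.08. The widest differences were those of petN, a cytochrome b6f subunit, with 242 and 915 in controls against 1471 and 1171 (1.42, adjusted p = 0.446), and ndhF, an NDH subunit, with 101 and 352 against 361 and 475 (1.01, adjusted p = 0.849). In both genes control 1 alone was low. Without control 1 the median was -0.14 for plastid genes and 0.90 for mitochondrial genes, and without control 2 it was 0.32 and 1.53. Ribosomal RNA also moved with the treatment, since the signal of the 25S control probe set was 154 and 218 in controls and 596 and 6262 in selenate shoots. Its part in the mitochondrial values was not tested.

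**Figure D3:**
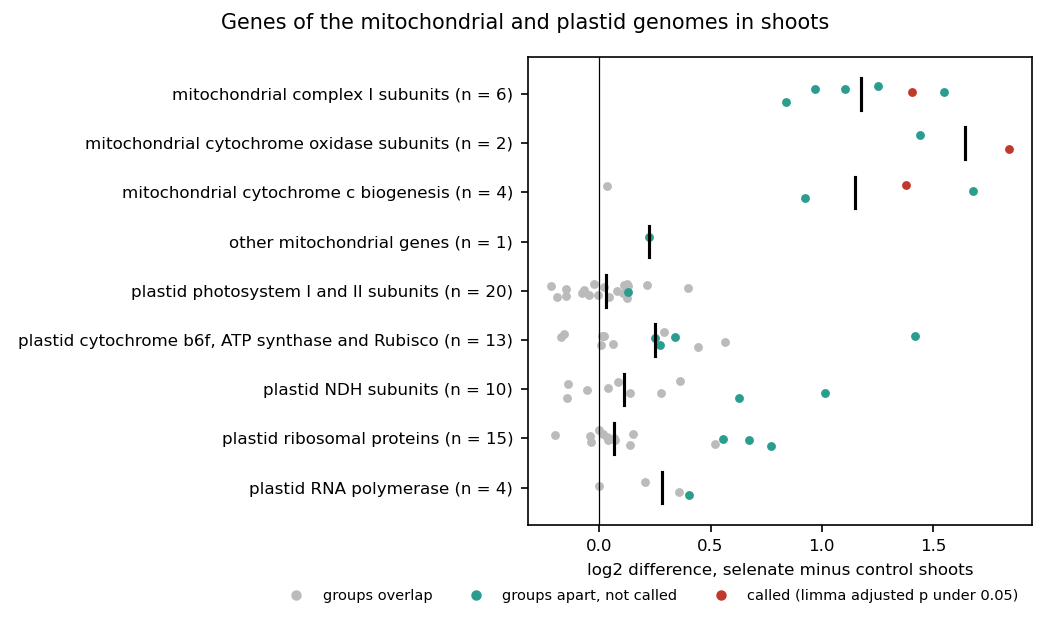
Each point is the log2 difference between selenate and control shoots of 1 gene of the mitochondrial genome or of the 62 plastid genes in 5 functional groups; black bars are group medians and n is the number of tested genes. The mitochondrial medians of complex I, cytochrome oxidase and cytochrome c biogenesis lie above 1, while the plastid medians lie between 0.03 and 0.28.

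Among nuclear genes that respond to impaired mitochondria, 1 of 4 tested was called. NDB2, an alternative NADH dehydrogenase on the outer face of the inner mitochondrial membrane that bypasses complex I, rose from 210 and 243 in controls to 578 and 716 in selenate shoots (2.67-fold, log2 difference 1.42, SE 0.20, limma adjusted p = 0.0216). The groups were separated by more than the spread within either. Of the other 3 tested members of this list, AT2G21640 had 132 and 134 against 562 and 289 (1.44, adjusted p = 0.559), AT5G51440 had 74.1 and 51.7 against 106 and 149 (0.79, adjusted p = 0.376), and AT1G05060 was at -0.30 with overlapping arrays. In AT5G51440 both controls were under 100, so it passed the filter only through the selenate arrays. Nothing is read from the list's median of 1.104.

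UDP-glycosyltransferases attach sugars to hormones, flavonoids and foreign compounds, and 12 of 26 tested members (46.2%) had both selenate arrays above both controls, against 16.7% of all genes. None of the 26 was called, and their median log2 difference was 0.35. UGT73C1 had 15.5 and 20.5 in controls and 142 and 128 in selenate shoots (1.90, limma adjusted p = 0.0974; 2.61 with a pseudocount of 5). UGT84A3 had 225 and 120 against 466 and 428 (1.31, adjusted p = 0.143), and UGT73B5 had 73.3 and 41.2 against 143 and 158 (1.12, adjusted p = 0.113). In 3 of the 12, UGT73C1, UGT73B5 and UGT72E2, both controls were under 100, and they passed the filter only through the selenate arrays. The share of 46.2% is thus partly set by the filter. The probe set shared by UGT73B2 and UGT73B3, left out of that count because it lists both, rose from 478 and 584 to 1967 and 1511 (1.66, adjusted p = 0.0216).

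Cytochrome P450 genes had 7 of 11 tested members (63.6%) with both selenate arrays above both controls, against 16.7% of all genes, none called, and a median of 0.34. The highest value was that of CYP71B6, with 1244 and 1940 against 2956 and 2149 (0.69, limma adjusted p = 0.383). GSTU16, a glutathione transferase, had 935 and 1325 against 3101 and 2450 (1.29, adjusted p = 0.136), while the other 3 tested members of its family ranged from -0.41 to 0.21. Thioredoxins and glutaredoxins, 10 genes of thiol redox control, were not called and had a median of -0.06, and 6 tested WRKY transcription factors had a median of 0.04.

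**Figure D4:**
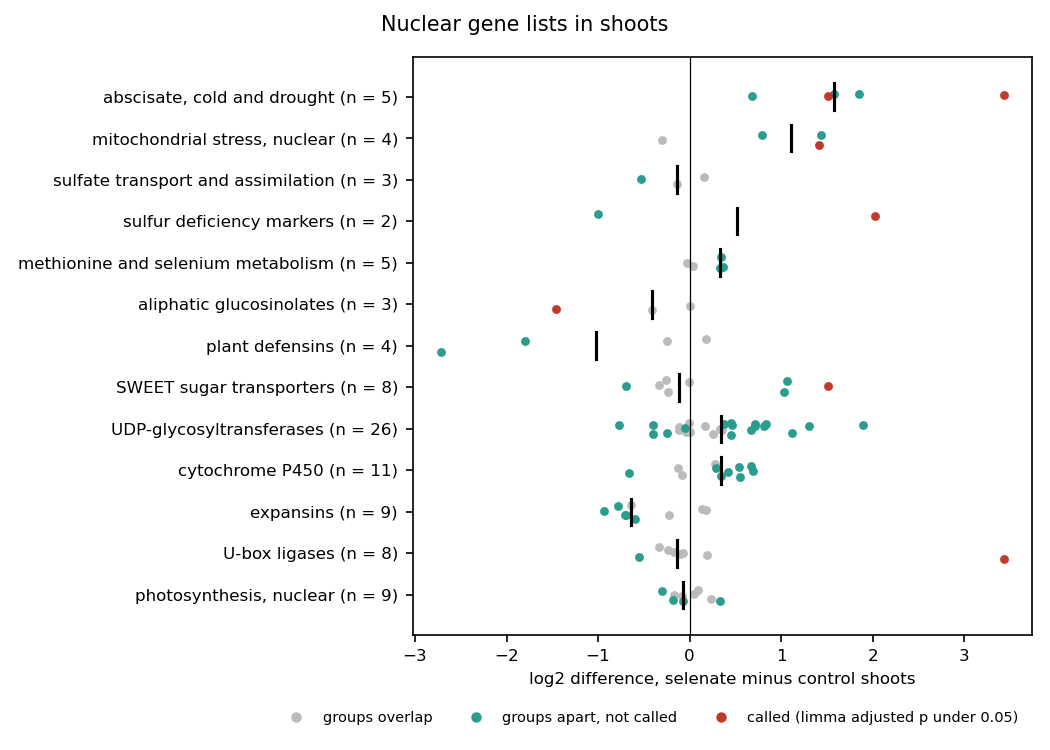
Each point is the log2 difference between selenate and control shoots of 1 nuclear gene, by list; black bars are list medians, red points are called genes, green points have both selenate arrays beyond both controls, and grey points overlap. The bars lie at 1.58 for abscisate, 1.104 for mitochondrial stress, -0.64 for expansins and -0.07 for photosynthesis genes. In 4 of 5 abscisate genes and 1 of 4 mitochondrial stress genes both controls were under 100. Nothing is read from the medians of those lists.

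Photosynthesis genes differed little between the groups. None of the 9 tested nuclear members was called with limma, and their log2 differences lay between -0.30 and 0.33 with a median of -0.07. LHCB4.2, an antenna protein of photosystem II, had 17791 and 15859 in controls and 13057 and 14212 in selenate shoots (-0.30, adjusted p = 0.819). PSAE-1, a subunit of photosystem I, had 27738 and 27530 against 27245 and 25401 (-0.07, adjusted p = 0.995). CHLM, an enzyme of chlorophyll synthesis, had a log2 difference of -0.18, and PORB, another, -0.06. PRL, a replication protein also named MCM7 and the only tested gene of the cell division list, had 666 and 758 against 475 and 494 (-0.53, adjusted p = 0.421).

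The remaining lists held few tested genes and no call. Heat shock genes had 3 tested members with log2 differences of -0.48 to 0.79, and 2 senescence genes, WRKY6 and WRKY53, were at 0.31 and -0.36. Single genes stood for indole glucosinolates (UGT74B1, -0.01), oxidative stress (CCS, 0.14), salicylate and defence (SAG101, 0.26) and anthocyanins (DFR, -0.08). No ethylene or metal-uptake gene on the lists was tested in shoots.

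The shoot response was then set against that of roots of the same treatment, with a test of the difference between the responses. In roots 10.5% of the same probe sets were called, and the difference between organs was called for 397 (2.91%), the shoot response being higher in 170 and lower in 227. That count was 118 without selenate shoot 1, 122 without selenate shoot 2, 237 and 251 without control root 1 or 2, and 246 without selenate root 2. The replicate spread was smaller in roots, so counts of calls are not a measure of how strongly each organ responded. Of the 97 probe sets called in shoots, 31 rose in both organs, 11 fell in both, and 46 were not called in roots. The difference of responses was called for 49 of the 97, among them 29 of the 46. The 97 were chosen for their shoot differences, which enter this test, and the 46 for lacking a root call. Nothing is read from these counts.

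Several genes answered in shoots with little or no difference in roots. ARR15 had 68.8 and 77.6 in control roots and 79.4 and 89.9 in selenate roots, a log2 difference of 0.16 beside -1.73 in shoots (difference of responses -1.89, limma adjusted p = 0.0152). GH9B8 had 0.13 in roots and -1.28 in shoots (adjusted p of the difference 0.0126), and SAG29 had -0.23 and 1.51 (0.0181). NDB2 was already high in roots, with 2237 and 2264 in controls and 2807 and 3033 on selenate, and its response was 0.37 there and 1.42 in shoots (0.0422). ALDH7B4 had 0.01 in roots and 1.13 in shoots (0.0233).

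BGLU28, APS3 and AT1G04770 had higher responses in roots than in shoots. BGLU28 went from 21.4 and 42.1 in control roots to 8237 and 6952 in selenate roots, a log2 difference of 7.09 beside 2.03 in shoots (limma adjusted p of the difference 5.63e-05). APS3 went from 164 and 156 to 897 and 997 in roots (2.39, against -0.53 in shoots, 8.37e-05), and AT1G04770 from 745 and 657 to 1748 and 1622 (1.24, against -0.999, 0.000754). APS4 went the other way, falling from 4941 and 4663 to 1166 and 1191 in roots (-2.003, against -0.14 in shoots, 0.0017), and for SIR the difference was not called (0.862). APS3 in control shoots lay above its level in selenate roots. BCAT4, in contrast, fell in both organs, from 2607 and 2170 to 1213 and 1056 in roots (-1.05), and its responses did not differ by the test (adjusted p = 0.554).

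In 9 probe sets the called change was opposite in the 2 organs, 7 higher in shoots and lower in roots and 2 the reverse. Among these, AT5G43150 rose from 1022 and 960 to 2216 and 2303 in shoots and fell from 2472 and 2415 to 1156 and 1200 in roots (log2 differences 1.17 and -1.04; difference of responses 2.21, limma adjusted p = 0.000252). AT1G20070 rose from 151 and 160 to 486 and 414 in shoots and fell from 478 and 515 to 316 and 299 in roots (1.40 and -0.65; adjusted p of the difference 0.00151). Control levels of both genes were higher in roots than in shoots, and selenate levels were higher in shoots. The other 7 had no listed gene. The widest contrast was that of 253767_at, which went from 243 and 389 to 61.8 and 31.8 in shoots (-2.25) and from 95.9 and 78.9 to 886 and 974 in roots (3.09). It passed the filter, which used the shoot arrays, only through the controls.

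The mitochondrial genes had positive medians in both organs. The median log2 difference was 0.70 in roots and 1.25 in shoots, and for none of the 13 was the difference of responses called with limma. For cox2 it was 0.79 (adjusted p = 0.407) and for nad9 0.84 (adjusted p = 0.191).

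**Figure D5:**
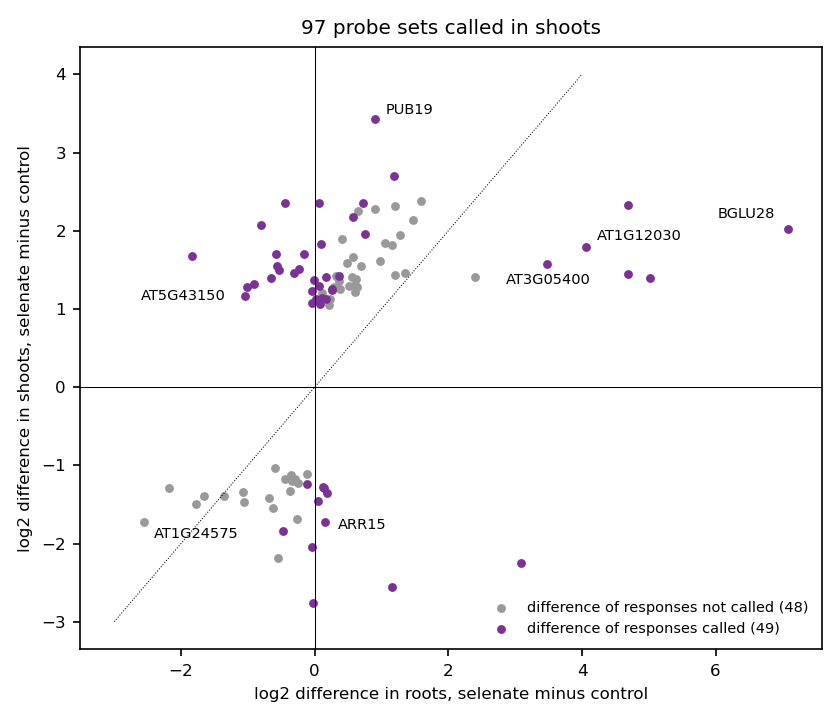
Each point is 1 of the 97 probe sets called in shoots, placed by its log2 difference in roots (horizontal) and in shoots (vertical); the dotted line marks equal responses, and purple points have a called difference of responses (49). BGLU28 lies farthest right at 7.09 in roots and 2.03 in shoots, while ARR15 lies near 0 in roots and at -1.73 in shoots.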

How the data were processed

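The authors computed the deposited intensity values (linear array signals) with MAS5, per the submitters' processing notes, which name no version. They form 1 table for all 8 arrays. The table shows that every array was brought to the same trimmed mean, 500.04 or 500.05 after dropping 2% of probe sets at each end. MAS5 subtracts mismatch signals, so weak signals carry large relative errors, and precision is limited by having 2 arrays per group. Of 22810 probe sets 64 controls were left out.

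A pseudocount of 25 was added before taking log2, which understates differences of weak genes. One mean per group was fitted over all 8 arrays with limma 3.58.1 in R 4.3.3. Each organ had its own array weight (1.76 per root array and 0.57 per shoot array), and the variance followed a trend on mean signal, with 4 residual and 6.38 prior degrees of freedom. Benjamini-Hochberg adjustment covered the 13640 tested probe sets, and probe sets with an adjusted p under 0.05 were called. Every adjusted p in the text is from this limma fit. The procedure was tested on simulated data.

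Genes came from the platform annotation, updated by gene identifier from RefSeq's TAIR10.1 annotation. Of the tested probe sets 7325 had 1 gene (7297 found in RefSeq), 270 several and 6045 none. The brightest probe set stood for a gene, which gave 7260 genes. Named were the 15 largest called rises and falls of probe sets with 1 gene annotated as nuclear. Also named were up to 8 genes per organelle genome and up to 5 per list (families from a log2 difference of 0.5). By ID, 4 unnamed probe sets were given. AT5G18840, AT1G73480, AT5G52450, AT4G38540, AT5G43150, AT1G20070, ALDH7B4, MSRB6, 253767_at, the probe sets shared by several genes and list members outside this rule were chosen after their values were seen. The compared arrays and all gene lists were chosen with earlier results of these data known. Organelle genes were grouped by symbol, since the table does not carry the locus prefixes first planned for them. Lists were described by counts and medians, with no set test. Replicate numbers were checked as pairs: deviations of same-numbered arrays correlated at -0.63 in shoots and 0.34 in roots. In the main fit the numbers were not taken to pair samples. On root arrays the ubiquitin ratio went with the number, at 2.737 (control) and 2.754 (selenate) for replicate 1. It was 2.124 and 2.185 for replicate 2. The main fit had no term for this. A planned search of promoter motifs was not run, since no promoter sequences were used here. Other settings tried were pseudocounts of 5 and 100, other filters, normalizations and models of spread, a replicate block, the GAPDH ratio as a covariate, and leaving out each array.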

Additional observations from a re-analysis of the deposited data

Results flagged for a closer look

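Of the 91 genes named by rule, 24 had a shoot response that differed from the root response by the limma test of the difference itself. In 11 the shoot response was above the root response and in 13 below. Among all tested probe sets the share was 2.91%. The genes were named largely for their shoot differences, which enter this test, so nothing is read from the count. The values here are log2 shoot response minus log2 root response. Groups of 2 arrays were too small for a check of single outlying arrays.

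Genes with a higher response in shoots were PUB19 (2.53), AT3G03270 (1.20), AT5G58570 (1.73), AT1G17960 (1.86), AT2G41190 (2.28), SAG29 (1.74), NDB2 (1.04), LEA4-5 (2.95), COR47 (0.906), UGT84A3 (1.75) and LHCB4.2 (1.51). For LHCB4.2 this came with a fall in roots, where signals were 146 and 147 in controls and 20.7 and 26.7 on selenate, against a shoot log2 difference of -0.30. LEA4-5 fell in roots by 1.37 on the log2 scale.

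Genes with a lower response in shoots fell into those that rose in both organs, those lower in shoots and those that rose in roots. BGLU28 (-5.06), AT1G12030 (-2.27) and AT3G05400 (-1.90) rose in both organs, and more in roots. AT2G28780 (-1.37), ARR15 (-1.89), AT5G19100 (-1.51), GH9B8 (-1.42) and ATLP-1 (-1.13) fell in shoots and were not called in roots, and PDF1.2b (-3.10) was called in neither organ. APS3 (-2.92), AT1G04770 (-2.24), AT2G29500 (-1.96) and PUB23 (-3.91) rose in roots and were not called in shoots. PUB23 had signals of 464 and 478 in control roots and 5052 and 5032 in selenate roots.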

How the results depend on the processing

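No called probe set changed direction under any setting run (84 of the 97 were tested with the stricter filter). Leaving out arrays or changing the spread, filter or pseudocount could not have reversed a direction. In all 97 both selenate arrays lay beyond both controls. The main counts were 67 higher, 30 lower, 397 different responses between organs and 7 called genes on the locus lists. With equal spread in both organs they were 174 higher, 130 lower and 14 list genes, and without a filter 28, 15 and 3. With only the 4 shoot arrays limma called 0 higher, 0 lower and 0 list genes (smallest adjusted p 0.0693, 1178 at an unadjusted p under 0.05). Without control 2 and selenate 1, the arrays with high GAPDH ratios, it called 0, 0 and 0, and 120 different responses (0.122, 784). With the replicate block it called 0, 0 and 0, and 140 different responses (0.0879, 510). With the GAPDH ratio as a covariate in shoots, which leaves 1 residual degree of freedom, the counts were 890 higher, 841 lower and 19 list genes. With crossed replicate pairs in shoots, a setting added after seeing the data, they were 479, 445, 1291 and 17. Leaving out 1 array gave 0 to 76 higher, 0 to 56 lower, 118 to 406 different responses and 0 to 6 list genes. Where an array was left out, the lone array of its group was assumed to vary like the others of its organ. Fewer arrays leave fewer degrees of freedom; beyond that the cause was not tested. The other pseudocounts, the stricter filter, both normalizations and the fit with no trend kept each of the 4 counts within 1.5 times. Of the 97 calls, 81 remained with a pseudocount of 5 and 82 with 100. With quantile normalization 89 remained, with median centring 94 and with no trend 61. With the stricter filter 76 of 84 remained. Among genes named by rule, a pseudocount of 5 lost the calls of AT5G58570, AT1G12030, AT2G41190, SAG29 and cox2. Quantile normalization lost SAG29, ATLP-1 and AT3G21770. The fit with no trend lost AT2G41190, AT2G46600, AT3G15630, ATLP-1, AT3G21770, AT5G38020, ASPGB1, AT3G45160 and OSM34. All 97 calls remained with equal spread, with the covariate and with crossed pairs. Each of these settings called many more probe sets than the main fit, so nothing is read from that. The promoter motif search was not run.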
